A study of Mus musculus with 8 samples.

Results

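The genes described here encode enzymes of fatty acid oxidation, their regulator PPARα and the enzymes that handle ketone bodies, 27 genes chosen by name. Of these, 26 had a probe set annotated to a single gene symbol, and each of the 26 had 1 such probe set. Cpt1b, the muscle isoform of carnitine palmitoyltransferase, had none and was not analysed here. A filter on dim genes, which left out the 33.3% of genes with the lowest mean over all 8 arrays (below a log2 value of 5.82), kept 25 members among 14787 genes. Hadhb, at a mean of 5.76, was the 1 member left out by it. The members just above the filter were Acot1 (mean 5.88) and Bdh1 (mean 5.90), and the next was Ppara at 6.97.

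Total RNA of the left epididymal fat pad was measured in 8 male C57BL/6 mice, with 1 Affymetrix Mouse Gene 2.0 ST array per mouse. The prednisolone group (GC+) held 4 mice that ate this synthetic glucocorticoid each day, mixed into sweet potato puree, over 4 weeks from 6 weeks of age, at a dose that the labels give as 40 mg/kg/m2. The vehicle group (GC-) held 4 mice that received the puree alone. Both groups were housed singly, were fed from weaning at 3 weeks on a diet rich in n-6 fat, with 45% of its energy from fat, and were killed at 10 weeks of age. Both groups therefore share the diet, and no mice on another diet were analysed here. Each sample was a piece of whole tissue with all its cell types, and the labels call the mice of a group biological replicates. The comparison addresses what prednisolone, given for weeks, changes in this fat depot on such a diet. Values are log2 expression values, differences are prednisolone minus vehicle means each with its standard error from the linear fit, and mouse numbers are those in the sample labels.

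Fatty acids enter mitochondria as carnitine esters. The outer membrane enzyme CPT1 makes the ester, the carrier encoded by Slc25a20 moves it across the inner membrane, and CPT2 turns it back into acyl-CoA. Each turn of the oxidation spiral then runs through an acyl-CoA dehydrogenase, a hydratase, a 3-hydroxyacyl-CoA dehydrogenase and a thiolase, and releases acetyl-CoA. Electrons taken by the dehydrogenases pass through the electron transfer flavoprotein to ubiquinone. White fat oxidises far less fatty acid than liver, heart or brown fat, but it holds the machinery and also burns ketone bodies that the liver makes. PPARα is a nuclear receptor that, as a dimer with RXR, induces many of these genes in liver when fatty acids are plentiful. Glucocorticoids are known to induce Pdk4 and to promote fatty acid release from adipocytes.

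Promoter windows of the RefSeq assembly GRCm38.p6, running from 250 bases before to 50 bases after the start of a gene, were matched by symbol for 22 of the 26 measured members, in 23 windows. The windows below are shown because they belong to the genes whose group means were furthest apart for their spread (Bdh1, with 2 starts, Slc25a20 and Ppara). The last is that of Hadhb, which shares its upstream DNA with Hadha. Letters run 5′ to 3′ on the strand of the gene. Capitals mark GGGCGG, the GC box of many housekeeping promoters, on either strand (CCGCCC on the other), and in Ppara also the palindromic 10-base site of NRF1, a factor of mitochondrial biogenesis, which begins at base -31 relative to the start.
Bdh1 start 1, chr16:31422047-31422346, + strand: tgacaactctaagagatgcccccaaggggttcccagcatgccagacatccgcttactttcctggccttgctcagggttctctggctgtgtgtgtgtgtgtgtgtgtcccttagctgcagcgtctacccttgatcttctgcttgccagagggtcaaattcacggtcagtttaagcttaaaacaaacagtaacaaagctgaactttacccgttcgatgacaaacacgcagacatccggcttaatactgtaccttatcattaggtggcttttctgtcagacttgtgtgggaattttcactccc
Bdh1 start 2, chr16:31428503-31428802, + strand: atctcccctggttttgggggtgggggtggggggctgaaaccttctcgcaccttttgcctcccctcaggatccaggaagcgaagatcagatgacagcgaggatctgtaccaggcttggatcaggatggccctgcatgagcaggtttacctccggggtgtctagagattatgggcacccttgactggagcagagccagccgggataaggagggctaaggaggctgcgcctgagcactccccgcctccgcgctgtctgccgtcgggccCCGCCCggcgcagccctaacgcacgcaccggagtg
Ppara, chr15:85735526-85735825, + strand: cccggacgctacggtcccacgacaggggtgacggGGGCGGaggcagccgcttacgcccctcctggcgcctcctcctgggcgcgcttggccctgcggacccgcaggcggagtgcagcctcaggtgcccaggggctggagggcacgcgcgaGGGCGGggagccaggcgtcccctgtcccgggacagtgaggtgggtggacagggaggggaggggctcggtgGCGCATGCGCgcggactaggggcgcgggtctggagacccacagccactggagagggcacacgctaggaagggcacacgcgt
Slc25a20, chr9:108661886-108662185, + strand: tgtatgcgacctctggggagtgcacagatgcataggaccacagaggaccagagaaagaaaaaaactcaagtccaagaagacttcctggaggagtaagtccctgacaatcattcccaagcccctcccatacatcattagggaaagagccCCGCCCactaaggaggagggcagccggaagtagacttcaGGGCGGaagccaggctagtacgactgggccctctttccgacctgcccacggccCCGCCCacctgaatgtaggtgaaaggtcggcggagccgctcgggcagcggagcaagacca
Hadhb, chr5:30155003-30155302, + strand: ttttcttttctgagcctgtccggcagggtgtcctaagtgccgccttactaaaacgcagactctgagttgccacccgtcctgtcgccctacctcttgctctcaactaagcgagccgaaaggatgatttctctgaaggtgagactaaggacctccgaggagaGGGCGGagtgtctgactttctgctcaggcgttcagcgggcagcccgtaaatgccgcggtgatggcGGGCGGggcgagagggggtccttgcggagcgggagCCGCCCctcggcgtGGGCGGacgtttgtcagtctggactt
The first Bdh1 window held none of the 6 motifs searched, and the second held 1 GC box. GGGCGG occurred in 16 of the 23 member windows, each of a different gene, against 35.7% of all 32851 windows. The NRF1 site occurred in those of 2 members, Ppara and Etfdh, against 0.971% of all windows. AGGTCA, the core element of PPARα, RXR and related receptors, occurred in 3 (Acadm, Acadvl and Cpt1a), against 16.3% of all. ACANNNTGT, the core of a glucocorticoid receptor site, occurred in 2 (Acot1 and Hadh), against 6.85% of all. The full PPARα element, a pair of AGGTCA copies with 1 base between them, occurred in 0 member windows, against 0.0396% of all. The full glucocorticoid receptor element, AGAACA and TGTTCT with 3 bases between them, also occurred in 0, against 0.00913% of all, and holds the core inside it. These matches describe letters in these windows on both strands. The windows of Hadha and Hadhb, which lie on opposite strands of chromosome 5, overlapped by 228 bases, and the starts of both genes lay 273 bases apart. The GC box of the Hadha window, at base -188, is the same site as that at base -90 of Hadhb, so these windows are not separate occurrences.

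Vehicle mouse 1 had the lowest adipocyte marker level of the 8 mice, and prednisolone mouse 2, vehicle mouse 1 and vehicle mouse 4 had the highest levels of markers of the neighbouring epididymis. Differences of tested members without vehicle mouse 1 are given below where they moved by over 1.5 times. The other tested members moved by less. Among these, without that mouse, Slc25a20 differed by 0.31, Hsd17b4 by 0.24, Ppara by 0.20, Acadm by 0.17 and Bdh1 by -0.45. Differences without prednisolone mouse 2, the low mouse of the other group, are mostly not printed, and their median was higher, as given below. Where vehicle mouse 1 is the lowest vehicle mouse for a gene, leaving it out must lower that gene's difference. Such a fall shows how much rests on this mouse and is not a test. In RNA of whole tissue, fewer cells of a type and less RNA per cell cannot be told apart.

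Most oxidation genes averaged slightly higher in prednisolone mice, and none passed the test across all genes. Of the 25 tested members, 20 had a higher and 5 a lower mean with prednisolone, where 54.6% of all 14787 tested genes had a higher mean. Among the 5, Bdh1 and Acot1 had prednisolone means below the filter value and vehicle means above it. With no filter, which adds Hadhb, 21 of 26 members had a higher mean, against 56.4% of all genes. The median difference of the members was 0.10, against 0.02 for all tested genes. Differences ran from -0.59 (Bdh1) to 0.36 (Slc25a20), with standard errors between 0.08 and 0.49. With limma and Benjamini-Hochberg adjustment over all tested genes, 0 members and 0% of all tested genes stood below an adjusted p of 0.05, and members reached no lower than 0.768. At an unadjusted p under 0.05 there were 4 members, against 5.69% of all tested genes. Of these, 3 were higher with prednisolone (Slc25a20, Hsd17b4 and Ppara, against 3.37% of all), and 1 was lower (Bdh1, against 2.33%). All prednisolone values of Bdh1 lay below the filter, which it passed through its vehicle values, so its place among these 4 is a description only. The groups did not overlap in 2 members, where 3.2% of all tested genes had groups that did not overlap. Ppara lay above in prednisolone mice, like 1.81% of all tested genes, and Bdh1 lay below, like 1.39%. Because of the way Bdh1 passed the filter, its place among these 2 is likewise a description only.

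**Figure D1:**
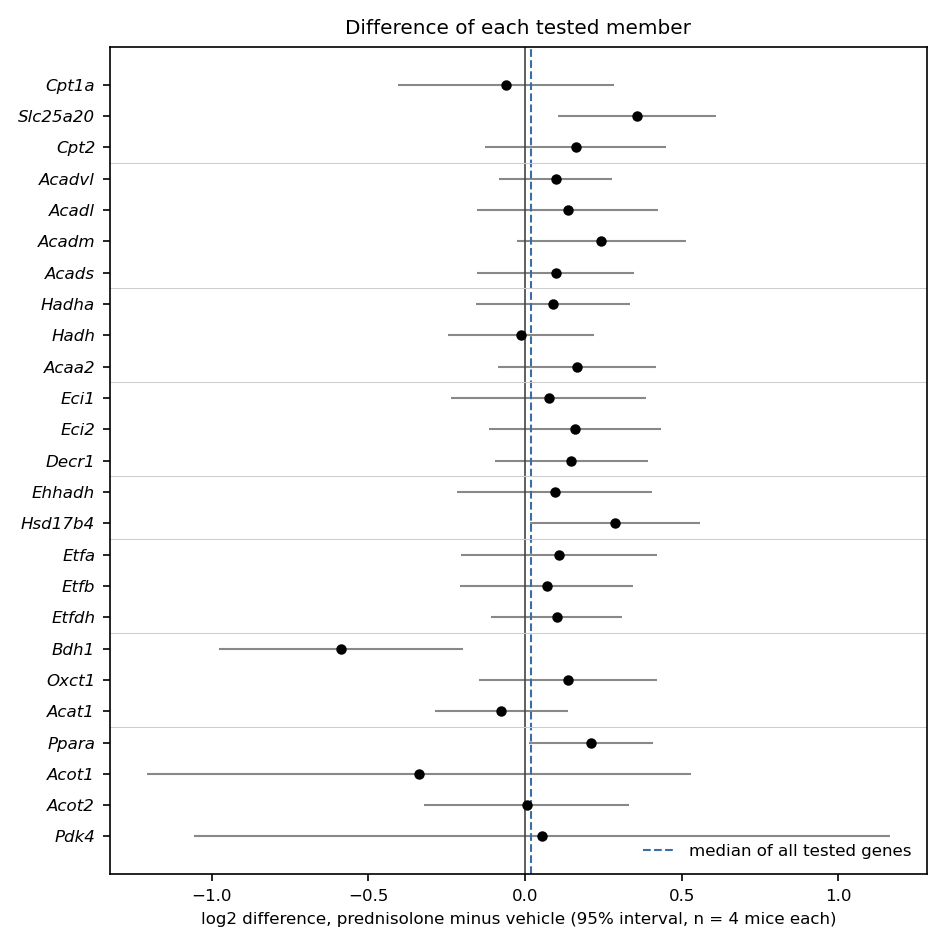
Difference of each of the 25 tested members, prednisolone minus vehicle, in log2 units on the horizontal axis, with genes in order of role down the page. Points are differences of group means (n = 4 mice each), lines are 95% intervals and the dashed line is the median of all tested genes. The intervals of Slc25a20, Hsd17b4 and Ppara lie above 0, that of Bdh1 lies below 0, and those of Pdk4 and Acot1 are the widest.

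In the carnitine shuttle, the carrier had the widest difference of the 3 tested members, and none passed the test. Slc25a20, the carnitine-acylcarnitine carrier of the inner membrane, read 9.85, 9.56, 9.93 and 9.96 in prednisolone mice 1 to 4, against 9.33, 9.57, 9.56 and 9.41 in vehicle mice 1 to 4. Prednisolone mice 1, 3 and 4 lay above every vehicle mouse, and prednisolone mouse 2 lay just under the top of the vehicle range. The means were 9.82 ± 0.18 in prednisolone and 9.47 ± 0.12 in vehicle mice (SD, n = 4 each). The difference was 0.36 ± 0.11, a 1.28-fold higher level, with a 95% interval from 0.11 to 0.61 and a limma adjusted p of 0.768. Cpt1a, the liver-type isoform that adds carnitine and is held back by malonyl-CoA, read 10.02, 10.17, 9.57 and 9.93 in prednisolone mice, against 10.23, 9.89, 10.05 and 9.76 in vehicle mice. The groups overlapped, with means of 9.92 ± 0.25 in prednisolone and 9.98 ± 0.20 in vehicle mice, and the interval of the Cpt1a difference ran from -0.41 to 0.28. Cpt2, which removes carnitine inside the mitochondrion, averaged 10.04 ± 0.21 in prednisolone and 9.88 ± 0.15 in vehicle mice (SD, n = 4 each), and the means differed by 0.16 ± 0.13. Without vehicle mouse 1, lowest at 9.70, the Cpt2 difference was 0.10 and that of Cpt1a 0.02.

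The 4 acyl-CoA dehydrogenases, which take chains of falling length through the first step of the spiral, all averaged higher with prednisolone by small amounts. Acadm, the medium-chain enzyme, read 11.89, 11.80, 12.16 and 12.08 in prednisolone mice, against 11.50, 11.87, 11.70 and 11.87 in vehicle mice. Prednisolone mice 1, 3 and 4 stood above the vehicle range, and mouse 2 lay inside it. Acadm averaged 11.98 ± 0.16 in prednisolone and 11.74 ± 0.17 in vehicle mice (SD). Its difference was 0.24 ± 0.12, with an interval from -0.02 to 0.51 and a limma adjusted p of 0.768. Acadl, the long-chain enzyme, read 11.23, 10.97, 11.15 and 11.28 in prednisolone mice, against 10.70, 11.20, 11.15 and 11.03 in vehicle mice. Vehicle mouse 1 lay below every prednisolone mouse, the other 3 vehicle mice lay inside the prednisolone range. The Acadl means of 11.16 ± 0.14 in prednisolone and 11.02 ± 0.22 in vehicle mice differed by 0.14 ± 0.13, and by 0.03 without vehicle mouse 1. Acadvl, the very-long-chain enzyme of the inner membrane, averaged 9.17 ± 0.08 in prednisolone and 9.07 ± 0.10 in vehicle mice, with a gap of 0.10 ± 0.08. Acads, the short-chain enzyme, averaged 9.77 ± 0.10 in prednisolone and 9.67 ± 0.19 in vehicle mice, with a gap of 0.10 ± 0.11. Without vehicle mouse 1, which was lowest for both at 8.96 and 9.52, the gaps of Acadvl and Acads were 0.06 and 0.05.

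Later steps of the spiral showed no member past the test. Hadha, the alpha subunit of the trifunctional protein with the long-chain hydratase and hydroxyacyl-CoA dehydrogenase, read 11.04, 10.92, 11.34 and 11.01 in prednisolone mice, against 10.92, 11.13, 10.92 and 10.97 in vehicle mice. The groups overlapped, with prednisolone mouse 3 highest, and the Hadha means of 11.08 ± 0.18 in prednisolone and 10.99 ± 0.10 in vehicle mice differed by 0.09 ± 0.11. Hadhb, the thiolase subunit of the same complex, read 5.96, 5.71, 6.25 and 5.98 in prednisolone mice, against 5.12, 5.83, 5.47 and 5.79 in vehicle mice. Its lowest value was again that of vehicle mouse 1, and the means were 5.97 ± 0.22 in prednisolone and 5.55 ± 0.33 in vehicle mice (SD). Hadhb was too dim for the main test, and with no filter its difference was 0.42 ± 0.18 (limma adjusted p = 0.791). Hadhb was not fitted without vehicle mouse 1, so the part of that mouse in its difference was not tested. Hadh, the short-chain hydroxyacyl-CoA dehydrogenase, averaged 12.19 ± 0.10 in prednisolone and 12.20 ± 0.16 in vehicle mice (SD), and its interval ran from -0.25 to 0.22. Acaa2, the mitochondrial thiolase, averaged 10.32 ± 0.13 (SD) in prednisolone mice against 10.16 ± 0.17 in vehicle mice, which differed by 0.17 ± 0.11. Without vehicle mouse 1, at 9.96, the Acaa2 difference was 0.10, and that of Hadh was -0.06.

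Unsaturated fatty acids, which the n-6 diet supplies, need isomerases and a reductase to pass through the spiral. All 3 of these auxiliary members averaged higher with prednisolone, each with an interval that includes 0. Eci1, an enoyl-CoA isomerase that moves double bonds, averaged 9.92 ± 0.19 in prednisolone and 9.85 ± 0.22 in vehicle mice (SD) and differed by 0.08 ± 0.14. Eci2, another such isomerase, averaged 9.41 ± 0.11 in prednisolone and 9.25 ± 0.22 in vehicle mice and differed by 0.16 ± 0.12. Decr1, the dienoyl-CoA reductase of mitochondria, averaged 9.21 ± 0.19 in prednisolone and 9.06 ± 0.10 in vehicle mice (SD), and the means differed by 0.15 ± 0.11. Vehicle mouse 1 was lowest for Eci1 at 9.55 and for Eci2 at 8.94, and without it Eci1 differed by -0.02 and Eci2 by 0.06.

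Electron transfer from the spiral to the respiratory chain showed small offsets, and none of its 3 members passed the test. Etfa, the alpha subunit of the flavoprotein, averaged 10.90 ± 0.14 in prednisolone and 10.79 ± 0.25 in vehicle mice (SD), with a gap of 0.11 ± 0.14. Etfb, the beta subunit, averaged 9.90 ± 0.11 in prednisolone and 9.83 ± 0.22 in vehicle mice, with a gap of 0.07 ± 0.12. Etfdh, which hands the electrons to ubiquinone, averaged 10.60 ± 0.09 in prednisolone and 10.50 ± 0.14 in vehicle mice, with a gap of 0.10 ± 0.09. Vehicle mouse 1 was the lowest mouse for all 3, at 10.41 for Etfa, 9.56 for Etfb and 10.34 for Etfdh. Without it, Etfa differed by -0.02, Etfb by -0.02 and Etfdh by 0.05.

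Of the peroxisomal enzymes, which shorten very long and branched chains, Hsd17b4 was among the 4 members under an unadjusted p of 0.05. Hsd17b4, the D-bifunctional protein, read 11.53, 11.41, 11.83 and 11.75 in prednisolone mice, against 11.20, 11.54, 11.30 and 11.34 in vehicle mice. Prednisolone mice 3 and 4 stood above every vehicle mouse, and mice 1 and 2 lay below vehicle mouse 2 and above the other 3. Hsd17b4 averaged 11.63 ± 0.20 in prednisolone and 11.35 ± 0.14 in vehicle mice (SD). The difference was 0.29 ± 0.12, a 1.22-fold higher level, with an interval from 0.02 to 0.56 (limma adjusted p = 0.768). Ehhadh, the L-bifunctional enzyme and a PPARα target in liver, averaged 8.23 ± 0.28 in prednisolone and 8.13 ± 0.08 in vehicle mice (SD), and the means differed by 0.09 ± 0.14, with prednisolone mouse 4 highest at 8.58.

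Of the 3 ketone body enzymes, 1 averaged higher and 2 lower with prednisolone, and none passed the adjusted test. Bdh1, the mitochondrial 3-hydroxybutyrate dehydrogenase that opens ketone body use, read 5.55, 5.77, 5.54 and 5.57 in prednisolone mice, against 6.62, 6.05, 5.79 and 6.33 in vehicle mice. Every prednisolone mouse lay below every vehicle mouse, although prednisolone mouse 2 and vehicle mouse 3 were 0.02 apart. Bdh1 averaged 5.61 ± 0.11 in prednisolone and 6.20 ± 0.36 in vehicle mice (SD). The difference was -0.59 ± 0.17, with an interval from -0.98 to -0.20 and a limma adjusted p of 0.768. All 4 prednisolone values of Bdh1 lay below the filter value of 5.82, so the size of the difference is uncertain, and RMA compresses differences at such low signal. Without the 3 mice of high epididymis markers described below, the Bdh1 difference was -0.37. Oxct1, the CoA transferase that commits acetoacetate to oxidation, read 10.48, 10.48, 10.70 and 10.85 in prednisolone mice, against 10.41, 10.76, 10.45 and 10.35 in vehicle mice. Vehicle mice 1, 3 and 4 lay below every prednisolone mouse, vehicle mouse 2 lay inside their range. Oxct1 averaged 10.63 ± 0.18 in prednisolone and 10.49 ± 0.18 in vehicle mice (SD), with a gap of 0.14 ± 0.12. Acat1, the thiolase that splits acetoacetyl-CoA, averaged 11.58 ± 0.12 in prednisolone and 11.65 ± 0.12 in vehicle mice (SD), and the means differed by -0.08 ± 0.09.

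Among the regulatory members, Ppara had the tightest prednisolone group. Ppara read 7.10, 7.12, 7.02 and 7.07 in prednisolone mice, against 6.84, 6.94, 6.68 and 7.01 in vehicle mice. The groups did not overlap, with prednisolone mouse 3 and vehicle mouse 4 nearest to each other. Ppara averaged 7.08 ± 0.04 in prednisolone and 6.87 ± 0.14 in vehicle mice (SD). The difference was 0.21 ± 0.09, a 1.16-fold higher level, with an interval from 0.01 to 0.41 (limma adjusted p = 0.768). Pdk4, the kinase that shuts off pyruvate dehydrogenase when fat is burned, read 10.13, 9.89, 10.21 and 11.16 in prednisolone mice, against 8.97, 10.14, 11.17 and 10.89 in vehicle mice. The vehicle mice spanned the whole prednisolone range, the means were 10.35 ± 0.56 in prednisolone and 10.29 ± 0.98 in vehicle mice, and the interval of the Pdk4 difference ran from -1.06 to 1.16. Without vehicle mouse 1, at 8.97, the Pdk4 difference was -0.39.

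Acot1 and Acot2 encode the cytosolic and the mitochondrial acyl-CoA thioesterase, which release free fatty acid from acyl-CoA. They are neighbouring genes of similar sequence, so their probe sets may share signal and the values are uncertain. Acot1 read 5.52, 6.75, 5.35 and 5.24 in prednisolone mice, against 6.62, 5.34, 6.12 and 6.15 in vehicle mice. Its prednisolone mean lay below the filter value of 5.82 and its vehicle mean above it, so its lower mean with prednisolone is a description only. Prednisolone mouse 2 and vehicle mouse 1 were highest, the groups overlapped, and the means of 5.71 ± 0.70 in prednisolone and 6.05 ± 0.53 in vehicle mice differed by -0.34 ± 0.38, and by -0.15 without vehicle mouse 1. Acot2 read 11.04, 10.59, 10.68 and 10.80 in prednisolone mice, against 10.59, 10.70, 10.69 and 11.12 in vehicle mice. Its means, 10.78 ± 0.19 in prednisolone and 10.77 ± 0.24 in vehicle mice, differed by 0.01 ± 0.14, or by -0.06 without vehicle mouse 1, with prednisolone mouse 1 and vehicle mouse 4 the highest of their groups.

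**Figure D2:**
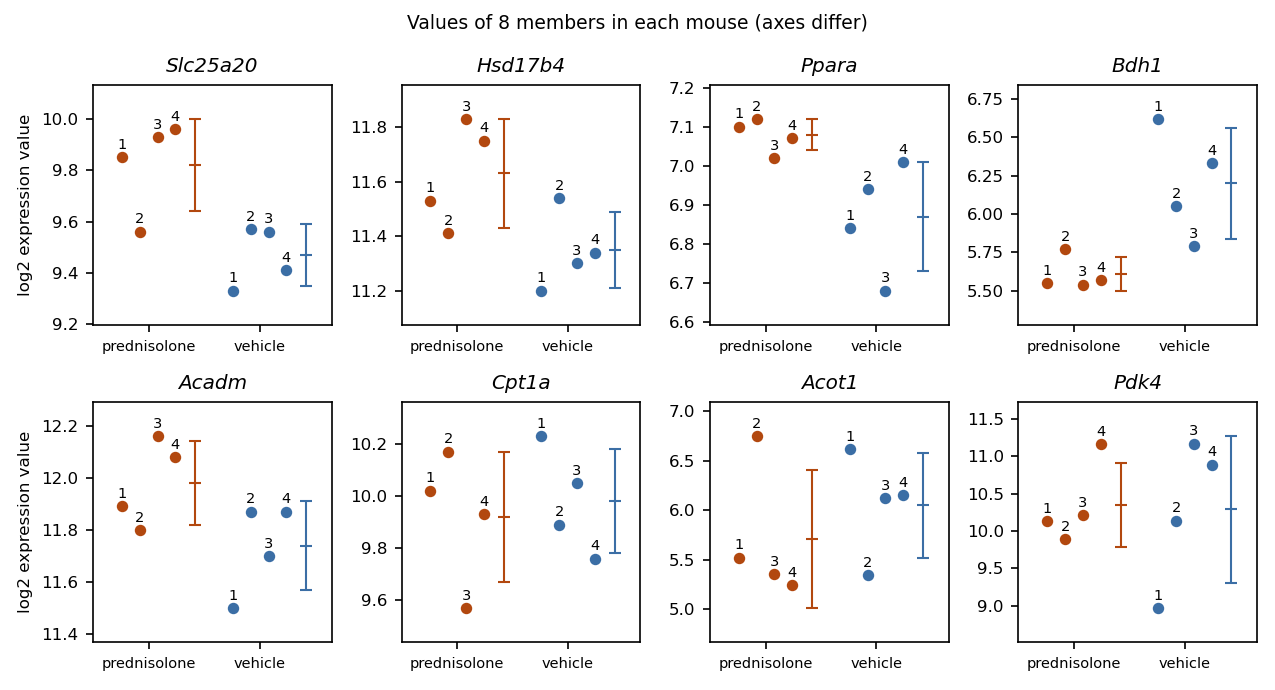
Log2 expression values of 8 members in each mouse, prednisolone at the left and vehicle at the right of each panel, with points numbered by mouse and bars giving the mean and SD of 4 mice. Vertical axes differ between panels and do not start at 0. Ppara and Bdh1 are the panels whose groups do not overlap, and Pdk4 spans 8.97 to 11.17 within the vehicle group.

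The mitochondrial spiral and electron transfer members shared a low mouse, vehicle mouse 1. Vehicle mouse 1 had the lowest value of all 8 mice in 18 of the 25 tested members (72%), against 23.7% of all tested genes. The 13 tested members of the mitochondrial spiral and of electron transfer, grouped after their values were seen, had their lowest value in that mouse without exception. The same mouse was the highest of all 8 for Cpt1a and Bdh1. For Hadha the margin was under the 2 decimals given above. After each gene was centred on its 8-mouse mean, the median over the members was 0.11, -0.10, 0.06 and 0.10 in prednisolone mice 1 to 4, against -0.21, 0.05, -0.08 and -0.01 in vehicle mice 1 to 4. Members lay above their own 8-mouse mean in 20, 3, 15 and 19 of 25 cases in prednisolone mice 1 to 4, against 3, 16, 8 and 12 in vehicle mice 1 to 4. Prednisolone mouse 2 and vehicle mouse 1 were the low mice of their groups, and the groups overlapped. Without vehicle mouse 1, 16 members had a higher mean with prednisolone and the median difference was 0.05. Without prednisolone mouse 2 those values were 21 and 0.16.

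**Figure D3:**
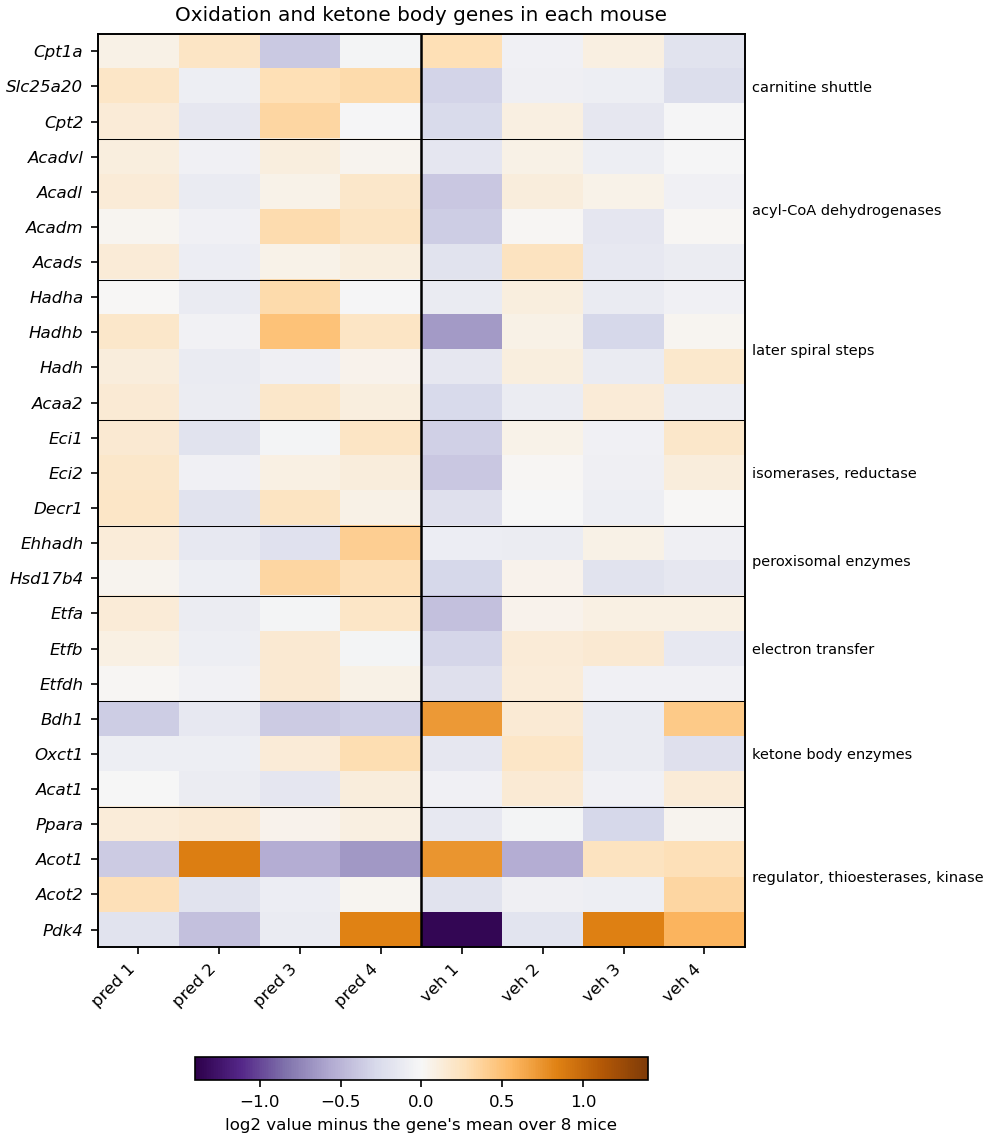
Each square is the log2 value of 1 measured member (rows, in order of role) in 1 mouse (columns, prednisolone mice left of the line and vehicle mice right of it), minus the mean of that gene over 8 mice. Vehicle mouse 1 is below the mean across the spiral and electron transfer rows, while Bdh1 and Acot1 are high in that mouse.

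The level of adipocyte markers was also lowest in vehicle mouse 1. Adipocyte markers were bright, at 9.52 to 14.03 over the 11 measured of 12, and Adipoq, the gene of adiponectin, read between 11.74 and 12.29. Of these 11, 10 averaged higher with prednisolone, 0 passed the adjusted test, and 8 were lowest in vehicle mouse 1. Their mean centred level was 0.07, -0.09, 0.19 and 0.13 in prednisolone mice 1 to 4, against -0.26, 0.12, -0.09 and -0.07 in vehicle mice 1 to 4. Prednisolone mouse 2 and vehicle mouse 1 were again the lowest of their groups. The part of adipocyte content in the member differences was not tested.

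Transcripts of the epididymis, the sperm-storing duct that lies against this fat pad, varied far more. The mean centred level of the 12 tested epididymis markers was 3.20 in prednisolone mouse 2, 3.08 in vehicle mouse 1 and 1.73 in vehicle mouse 4. It lay between -2.55 and 0.43 in the other 5 mice. The mice with the 2 highest levels, prednisolone mouse 2 and vehicle mouse 1, were those with the lowest oxidation gene levels of their groups and with the highest Cpt1a and Acot1. The median member level was -0.01 in vehicle mouse 4 and -0.08 in vehicle mouse 3, whose epididymis level was -1.27. The epididymis level averages markers that ranked the mice differently, so it does not rank epididymal content. Lcn5 read 13.64 in vehicle mouse 4 and 10.22 in prednisolone mouse 2, while Lcn9 read 5.81 and 13.61. The part of epididymal tissue in the member levels was not tested. Within each group Bdh1 was also highest in the mice with high epididymis markers, vehicle mice 1 and 4 and prednisolone mouse 2. Without these 3 mice, 19 of 25 members had a higher mean with prednisolone, with a median difference of 0.09. That fit compared 3 prednisolone with 2 vehicle mice, and still held prednisolone mouse 1 and vehicle mouse 3 with their epididymal signal. In it, Slc25a20 differed by 0.34, Hsd17b4 by 0.29, Ppara by 0.25 and Bdh1 by -0.37, all with a limma adjusted p of 0.957. The Bdh1 groups did not overlap in the full set, so they could not overlap in the 5 remaining mice, and this subset cannot test that separation.

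Other marker lists were as follows. All 12 macrophage markers averaged higher with prednisolone, 0 passed the adjusted test, and their mean centred level ran from -0.01 to 0.49 in prednisolone and from -0.60 to 0.60 in vehicle mice. Brown and beige adipocyte markers, of cells rich in oxidation enzymes, were dim: the 8 genes lay between 4.49 and 7.52, and 4 passed the filter, all with a higher mean in prednisolone mice and 0 past the adjusted test. Their mean centred level ran from -0.05 to 0.27 in prednisolone and from -0.32 to 0.21 in vehicle mice. Ucp1, the uncoupling protein of brown fat, was below the filter, and read 6.03, 5.61, 6.74 and 5.78 in prednisolone mice, against 5.28, 5.54, 5.22 and 5.59 in vehicle mice. Of 7 tested skeletal muscle markers, 5 averaged higher, with mean centred levels from -0.08 to 0.31 in prednisolone and from -0.25 to 0.01 in vehicle mice. Of 6 mesothelial markers 5 averaged higher, with levels from -0.39 to 0.37 in prednisolone and from -1.22 to 1.23 in vehicle mice. Of 8 endothelial markers 7 averaged lower with prednisolone, with levels from -0.50 to 0.49 in prednisolone and from -0.48 to 0.37 in vehicle mice. The part of any of these lists in the member differences was not tested.

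**Figure D4:**
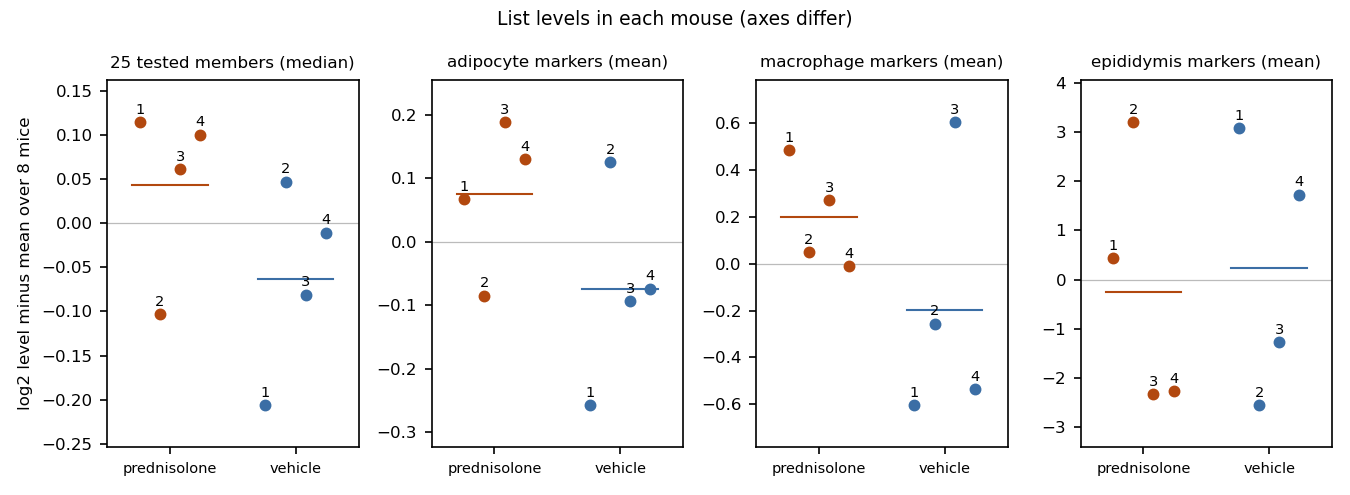
Level of the 25 tested members (median) and of adipocyte, macrophage and epididymis markers (mean) in each mouse, in log2 units after each gene was centred on its mean over 8 mice. Points are mice numbered by replicate, prednisolone left and vehicle right, lines are group means, and vertical axes differ. Prednisolone mouse 2 and vehicle mouse 1 are low for members and adipocyte markers and high for epididymis markers.

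The other genes of the pathway had a smaller median difference than the members, which was not tested. A list of 87 further genes covered activation and uptake of fatty acids, carnitine handling, other mitochondrial and peroxisomal steps, ketone bodies, regulators, pyruvate dehydrogenase control and other thioesterases. Of these, 77 had a one-symbol probe set and 73 were tested. The 10 without one were not analysed here. With limma 0 passed the adjusted threshold, 3 had an unadjusted p under 0.05 (against 5.69% of all tested genes), and 48 of 73 averaged higher with prednisolone (against 54.6%). The median difference was 0.04, against 0.02 for all tested genes. Of 14 other mitochondrial genes 10 averaged higher (median 0.06), of 13 peroxisomal genes 9 (median 0.06), of 5 ketone body genes 3 (median 0.03) and of 7 pyruvate dehydrogenase genes 3 (median -0.05).

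Angptl4, a secreted inhibitor of lipoprotein lipase that fatty acids and glucocorticoids are known to induce, read 12.14, 11.85, 11.91 and 12.61 in prednisolone mice, against 11.11, 11.79, 12.02 and 11.45 in vehicle mice. Prednisolone mice 1 and 4 lay above every vehicle mouse, and the difference was 0.53 ± 0.23 (limma adjusted p = 0.768). Sirt1, a nuclear deacetylase that acts on the PPARα coactivator PGC-1α, read 8.09, 7.93, 8.03 and 7.98 in prednisolone mice, against 8.18, 8.23, 8.11 and 8.38 in vehicle mice. Its groups did not overlap, the 1 such case among the 73 tested pathway genes, against 3.2% of all tested genes. The Sirt1 difference was -0.22 ± 0.08 (limma adjusted p = 0.768). Acsl4, an acyl-CoA synthetase that prefers arachidonic acid, read 8.40, 8.74, 8.35 and 8.54 in prednisolone mice, against 9.89, 8.61, 8.71 and 9.35 in vehicle mice. Its highest values were in vehicle mice 1 and 4, which had high epididymis markers, and the difference was -0.63 ± 0.27. It was -0.38 without vehicle mouse 1 and -0.23 without the 3 mice of high epididymis markers, a setting in which Sirt1 differed by -0.14 and Angptl4 by 0.31. Ppargc1a, which encodes PGC-1α, averaged 7.36 ± 0.37 in prednisolone and 7.45 ± 0.31 in vehicle mice (SD), with overlapping groups.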

How the data were processed

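The deposited values are log2 expression values, summarised by the authors by RMA (robust multiarray averaging). The submitters' processing notes name Expression Console, and Partek 6.6 with no role. RMA corrects background, makes the arrays' distributions equal and summarises probes, so a shift common to all genes is removed and low signals are compressed. The genome build of the array annotation is not given in the sources used here. Array medians lay between 6.09 and 6.13, and pairs of arrays correlated at 0.879 to 0.986 across tested genes.

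Of 41345 probe sets, 23521 had 1 gene symbol in GEO's platform annotation, 1814 had several and 16010 had none. Per gene the one-symbol probe set with the highest mean over 8 arrays was kept (22180 genes). All 26 measured members matched RefSeq by Entrez identifier with an unchanged symbol. The groups were compared by lmFit and eBayes of limma 3.58.1 in R 4.3.3, with no covariate and with Benjamini-Hochberg adjustment over 14787 genes, and the fit was tested on simulated data. The number of arrays limits the precision. Per-mouse values are given for members under an unadjusted p of 0.05, members with groups that do not overlap, those next to the filter and a few central enzymes. Pathway genes are named by the same p, and Ppargc1a always. Some items of the pathway list are not reported here. The members, lists and rules were chosen with earlier results of these data known.

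Alternatives changed the filter, normalization, probe sets, variance model, array weights and block, left out each mouse, and, added after seeing the data, left out mice with an epididymis level above 1 or used that level as a covariate.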

Additional observations from a re-analysis of the deposited data

Results flagged for a closer look

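Of 52 groups of 4 values examined (26 members in both groups of mice), 2 held a mouse far from the other 3 of its group, and chance alone gives about 1 in 20. Prednisolone mouse 2 read 5.77 for Bdh1, against 5.54 to 5.57 in the other prednisolone mice. Vehicle mouse 1 read 10.41 for Etfa, against 10.89 to 10.93 in the other vehicle mice. Prednisolone mouse 2 and vehicle mouse 1 had the highest epididymis marker levels of the series, and vehicle mouse 1 the lowest adipocyte marker level.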

How the results depend on the processing

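Under all 18 alternatives 0 members and 0 pathway genes passed an adjusted p of 0.05 with limma, the one tool run. Members under an unadjusted p of 0.05 numbered 2 to 6, or 8% to 24% of those tested, against 2.95% to 13.4% of all tested genes. With array quality weights the members' share, 12%, was below that of all genes, 13.4%. Slc25a20 stayed under it in all 18 alternatives, while Hsd17b4 and Ppara each did so in 10 of 18. The stricter filter on dim genes (dimmest 50%) dropped Bdh1 and Acot1. The median difference of the members was 0.05 to 0.16 without 1 mouse and 0.08 to 0.11 otherwise, and 16 to 22 members had a higher mean. The pathway list median was 0.01 to 0.07 without 1 mouse. Mice with the same replicate number share no stated origin, and correlations of their deviations from the group means were -0.19, -0.58, 0.13 and -0.28, so the numbers were not taken as pairs. With the replicate number as a block, 2 members were under an unadjusted p of 0.05, against 4 without it, the median difference stayed at 0.10 and the lowest adjusted p of a member was 0.937. Hsd17b4 and Ppara left that count, with unadjusted limma p of 0.086 and 0.071. No member passed the adjusted threshold in either fit, so there was no adjusted call to change.

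Of 502 values for single genes, 477 kept their direction and 25 turned, in 8 of 28 genes, and the cause was not tested. Without 1 mouse, Cpt1a ran from -0.142 to 0.055, Hadh from -0.064 to 0.047, Eci1 from -0.022 to 0.152, Ehhadh from -0.024 to 0.177, Etfa from -0.018 to 0.161, Etfb from -0.020 to 0.133, Acot2 from -0.082 to 0.120 and Pdk4 from -0.387 to 0.345. With array quality weights Cpt1a stood at 0.049, Acot2 at -0.053 and Pdk4 at -0.117, and after a repeated quantile normalization Acot2 stood at -0.009. Without the 3 mice of high epididymis level Hadh stood at 0.035, Etfb at -0.075 and Pdk4 at -0.154, and with that level as a covariate Pdk4 stood at -0.028. Dim signal limits Bdh1, Acot1 and Hadhb, since values near the filter carry no detection call here.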
